A study of Mus musculus with 15 samples.

Results

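Imprinted genes are expressed mainly or only from the copy inherited from 1 parent. The 38 imprinted genes described here were chosen by name: 22 are classed as paternally expressed (read from the father's copy) and 16 as maternally expressed. A gene was matched where the array's gene name equalled its symbol, and the probe with the highest mean processed signal stood for it. A probe was found for 37 of the 38. Rian, a noncoding RNA of the Dlk1-Meg3 domain, had none. Of these 37, 36 were well above background on all 15 arrays and were tested, 21 paternally and 15 maternally expressed, among 25090 tested genes in all. The classes follow common usage. Grb10, Gnas and Inpp5f switch parental copy between tissues or transcripts, and the arrays do not separate the parental copies of any gene.

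The cells were mouse embryonic stem cells, which are derived from the early embryo and can form all its tissues. Per the labels, every sample carried a short hairpin RNA, either sh4 or shCTR, and had received 1 µM retinoic acid for 72 hours or was untreated. Retinoic acid is a vitamin A derivative that makes such cells leave the stem cell state. There were 3 arrays of sh4 cells in retinoic acid, 4 of shCTR cells in retinoic acid, 4 of untreated sh4 cells and 4 of untreated shCTR cells. The target of sh4 is not stated in the labels. The title of the study names Phf19, which encodes an accessory protein of PRC2, the Polycomb complex that places methyl groups on histone H3. The Phf19 level of sh4 cells was 54.4% of that of shCTR cells in retinoic acid and 30.2% in untreated cells. On the log2 scale, relative to each array's 75th percentile, it was −3.97 to −3.71 in treated sh4 and −3.06 to −2.80 in treated shCTR cells. In untreated cells it was −2.61 to −2.51 with sh4 and −0.98 to −0.69 with shCTR. Treated shCTR cells thus had a lower Phf19 level than untreated sh4 cells. Only 1 targeting and 1 control hairpin were used, and the labels give no culture time for untreated cells, so retinoic acid and 72 hours of culture cannot be told apart. The titles call the samples biological replicates without saying what was separate, and the p-values cover only the spread seen between these samples.

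Most imprinted genes lie in clusters, and each cluster is governed by a short control region that carries DNA methylation on 1 parental copy from the egg or sperm onward. Insulators, noncoding RNAs and repressive chromatin carry that mark over to the neighbouring genes. The zinc finger protein ZFP57 and its partner TRIM28 keep the methylation in place in the early embryo and in embryonic stem cells. Many imprinted genes set the growth of the fetus and the placenta, several act in the brain, and a few act as single noncoding RNAs.

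RefSeq start sites on the build GRCm38.p6 were available for 32 of the 38 genes, as 51 windows of 250 bases upstream of a start. The hexamer TGCCGC, the known binding motif of ZFP57, was searched on both strands, as TGCCGC and as GCGGCA. It was found in 9 of the 51 windows (17.6%), which belong to 8 of the 32 genes, against 2850 of 32851 windows of all genes (8.68%). Windows of neighbouring starts overlap: 2 of the 9 are Mest windows that start 3 bases apart and hold the same matches, so the 9 windows make 8 separate stretches. Counted by gene, 25% of the imprinted genes and 9.84% of all genes had a match, with 1.59 and 1.22 windows per gene. Of the 8 genes, 5 are among the 18 paternally expressed genes with a window (Zdbf2, Mest, Plagl1, Nap1l5 and Mcts2) and 3 among the 14 maternally expressed ones (Meg3, Calcr and Zim1). The median number of CpG dinucleotides per window was 10 in the imprinted genes and 6 in all genes. A match is a description of letters, not of binding. The window with the most matches belongs to Zdbf2, on chr1:63200108-63200357 of the plus strand, and is shown with those of Mest (chr6:30737800-30738049, plus strand) and Meg3 (chr12:109540746-109540995, plus strand), whose genes moved in the comparisons described further on. Capitals mark the motif on either strand.
Zdbf2: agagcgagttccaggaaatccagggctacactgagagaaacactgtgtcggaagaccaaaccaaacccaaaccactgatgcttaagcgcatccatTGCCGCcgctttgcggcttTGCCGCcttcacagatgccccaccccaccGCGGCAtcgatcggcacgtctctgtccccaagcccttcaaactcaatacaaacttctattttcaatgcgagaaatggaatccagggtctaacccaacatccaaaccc
Mest: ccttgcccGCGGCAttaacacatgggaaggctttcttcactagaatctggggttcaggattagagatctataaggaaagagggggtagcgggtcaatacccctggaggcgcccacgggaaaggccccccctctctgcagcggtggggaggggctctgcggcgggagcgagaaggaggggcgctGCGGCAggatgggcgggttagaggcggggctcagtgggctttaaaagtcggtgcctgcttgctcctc
Meg3: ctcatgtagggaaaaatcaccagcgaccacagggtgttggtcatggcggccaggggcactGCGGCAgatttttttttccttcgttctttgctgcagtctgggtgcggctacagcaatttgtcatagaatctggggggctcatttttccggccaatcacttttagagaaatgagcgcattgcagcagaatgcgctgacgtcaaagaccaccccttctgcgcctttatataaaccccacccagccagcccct

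Peg3 and Usp29 are read in opposite directions from starts only 163 bases apart, and they differed in their values in untreated sh4 cells. That shared stretch, chr7:6730420-6730582 on the plus strand of GRCm38.p6, holds 5 CpG dinucleotides, marked in capitals, and no TGCCGC or GCGGCA.
Peg3-Usp29: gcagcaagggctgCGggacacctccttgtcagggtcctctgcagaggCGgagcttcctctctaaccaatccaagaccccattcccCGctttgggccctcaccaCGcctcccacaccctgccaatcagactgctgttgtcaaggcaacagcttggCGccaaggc

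The 3 tested noncoding RNA genes were read through 60-base probes whose positions the file headers give on mm9. Both H19 probes are shown, because they gave different results: the first, at chr7:149761492-149761551 on the minus strand, was bright and used, and the second, at chr7:149762417-149762476 on the minus strand, was dim. The probes used for Meg3 (chr12:110809678-110809737) and Mirg (chr12:110987569-110987628) lie on the plus strand of the Dlk1-Meg3 domain.
H19, used: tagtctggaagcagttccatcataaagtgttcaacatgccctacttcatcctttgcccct
H19, second: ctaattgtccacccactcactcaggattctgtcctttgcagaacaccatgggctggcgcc
Meg3: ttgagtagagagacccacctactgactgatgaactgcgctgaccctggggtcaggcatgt
Mirg: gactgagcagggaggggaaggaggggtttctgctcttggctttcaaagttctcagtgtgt

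Levels are log2 of the processed signal minus the 75th percentile of its array, so a level of 0 is the signal at that percentile. Levels of different probes are not compared. That percentile was 1509 to 1911 signal units, 73.8% to 79.4% of probes per array were well above background, and no spot was saturated. A rating of "evaluate" was given by the scanner software to 3 arrays, namely treated sh4 replicate 1, and sh4 replicate 3 and shCTR replicate 2 of the untreated cells. The arrays lay on 4 slides, 1 of which held no treated sh4 array. Each called change had the same sign within every slide that held both groups (22 of 22, 12 of 12, 30 of 30 and 29 of 29 calls in the 4 pairwise comparisons), which follows in large part from groups that do not overlap. Changes are log2 differences ± standard error from 1 limma model of all 15 arrays, with p-values adjusted (Benjamini-Hochberg) over all 25090 genes, and a gene was called at an adjusted p under 0.05. In whole cultures, fewer cells of a type and less RNA per cell cannot be told apart.

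**Figure D1:**
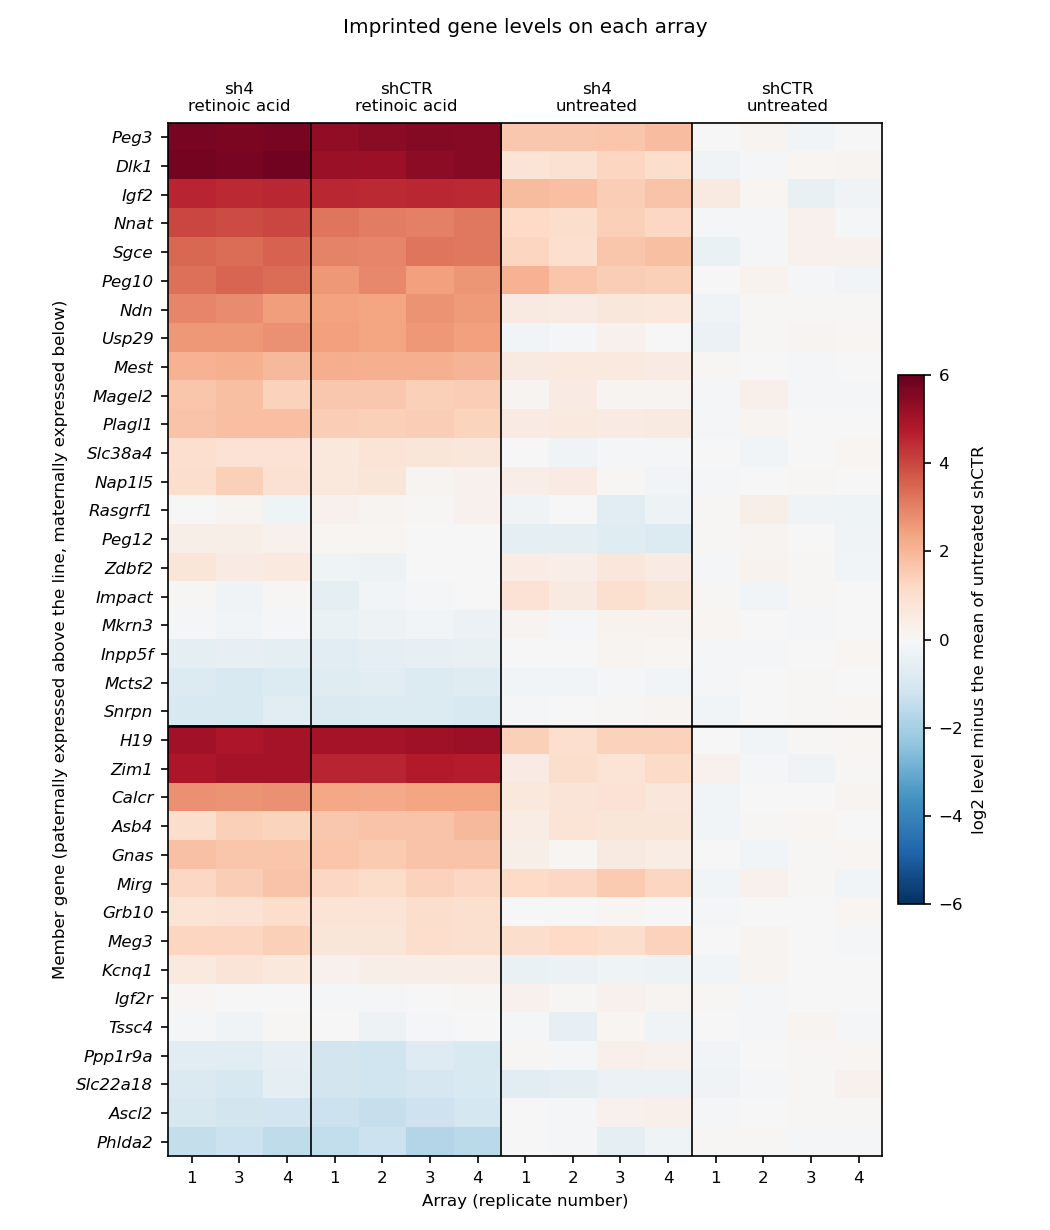
Level of each of the 36 tested imprinted genes (rows, by class) on each of the 15 arrays (columns, by group), as the log2 difference from the mean of the 4 untreated shCTR arrays. Colour runs from lower (blue) to higher (red), and Peg3, Dlk1 and H19 show the strongest red in the retinoic acid arrays.

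In untreated cells, 18 of the 36 imprinted genes were higher in sh4 than in shCTR cells and 4 were lower. Called genes made up 28.6% of all genes tested, 14.4% higher and 14.1% lower. Igf2, the fetal growth factor, was 3.28-fold higher, Peg3, a zinc finger protein, 3.24-fold and Peg10, a retrotransposon-derived gene needed for the placenta, 3.17-fold. The noncoding RNAs Mirg, H19 and Meg3 were 2.49-fold, 2.46-fold and 2.25-fold higher. In all, 9 genes were at least 2-fold higher and none was 2-fold lower, where 6.55% of all genes were called with a change of at least 2-fold in either direction. The median change was 0.31 over the 36 genes and 0.02 over all genes. The sh4 arrays lay entirely above the shCTR arrays for 17 genes and entirely below for 4, and groups did not overlap for 28.3% of all genes.

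Both classes held genes that rose in untreated sh4 cells. Among the 21 paternally expressed genes 11 rose and 2 fell (Peg12 and Mcts2), with a median change of 0.51. Among the 15 maternally expressed genes 7 rose and 2 fell (Slc22a18 and Kcnq1), with a median of 0.18. No difference between the classes was tested. Omission of single arrays ended the call of Mcts2 alone, in 10 of 15 cases (adjusted p up to 0.11). Under normexp background correction with an offset of 50, which draws dim probes together, 17 genes were called: Zim1, Calcr, Asb4, Kcnq1 and Mcts2 lost their calls. Igf2, Peg3, Peg10 and Nnat kept theirs, with smaller changes of 0.40, 0.66, 1.10 and 0.43. In the authors' deposited table of log2 values, the changes of these 4 genes were 0.58, 0.78, 1.17 and 0.54, and Zim1 (adjusted p = 0.079), Kcnq1 and Mcts2 were not called.

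Markers of other cell types moved in the same comparison. The summed level of 9 trophectoderm markers, genes of the outer layer that forms the placenta, was 48.8 to 59.7 times the 75th percentile signal in untreated sh4 cells and 4.31 to 5.96 times in untreated shCTR cells. Of these 9, 8 rose, Cdx2 by 4.16, Krt7 by 4.02, Krt18 by 3.91 and Hand1 by 3.03. Elf5 was well above background on 2 of 4 sh4 arrays and on no shCTR array. Of 10 fibroblast markers 5 rose, among them Acta2 by 2.92, and 3 fell, among them Thy1 by 1.71 on the log2 scale, with a median change of 0.45. Their summed level was lower, opposite in sign to that median, at 1.48 to 1.58 in sh4 and 2.63 to 2.94 in shCTR cells, and of these genes Postn was well above background on no sh4 array, and Postn, Col3a1, Dcn and Lum on no shCTR array. Of 10 endoderm markers 7 fell and none rose. They summed to 0.371 to 0.405 in sh4 and 1.16 to 1.33 in shCTR cells, with Ttr and Afp well above background on no sh4 array and Ttr on no shCTR array. The 10 stem cell markers were well above background on every array and summed to 356 to 388 in sh4 and 386 to 470 in shCTR cells, with 2 lower and none higher. The part of these cell types in the imprinted genes' changes was not tested.

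**Figure D2:**
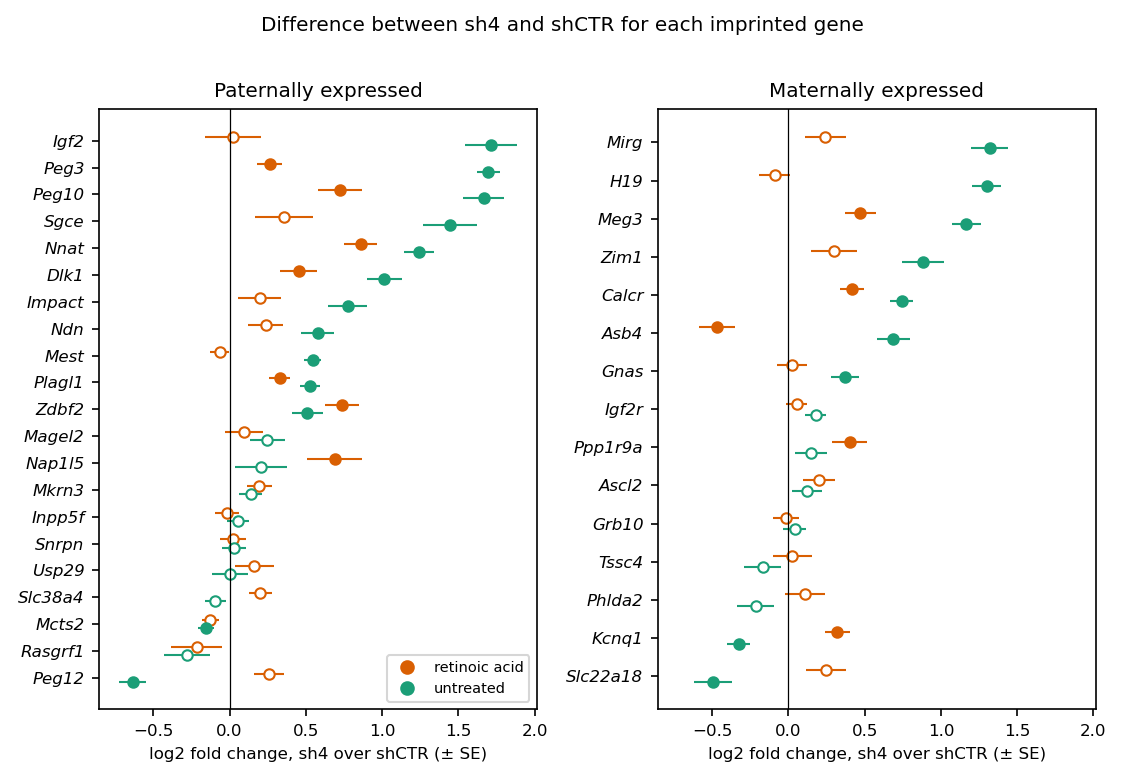
Hairpin effect on each imprinted gene, as the log2 fold change of sh4 over shCTR ± SE, in retinoic acid (orange) and in untreated cells (green), for paternally (left) and maternally (right) expressed genes. Filled points had an adjusted p under 0.05. The orange points span −0.47 to 0.86 and the green points −0.64 to 1.71.

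In retinoic acid, 11 of the 36 genes were higher in sh4 than in shCTR cells, 1 was lower, and none reached 2-fold. Nnat, a small membrane proteolipid, was 1.81-fold higher, Zdbf2 1.67-fold, Peg10 1.65-fold and Nap1l5 1.61-fold. Asb4, a subunit of ubiquitin ligases, was lower at 0.724-fold of the shCTR level. Called genes made up 21.2% of all genes, 10.9% higher and 10.3% lower, and calls of at least 2-fold 3.42%. The median change was 0.20, against 0.04 over all genes. The sh4 arrays lay above the shCTR arrays for 16 genes and below for 2, against 32.4% of all genes with no overlap. Of the paternally expressed genes 7 rose (median 0.20), and of the maternally expressed genes 4 rose and 1 fell (median 0.20). Cell type markers moved in this comparison too. All 10 endoderm markers fell by at least 2-fold (median −2.49). Of 10 stem cell markers 6 fell and 1 rose (median −0.81). Of 9 trophectoderm markers 3 rose and 3 fell, and of 10 fibroblast markers 2 rose and 1 fell. The part of these cell types in the imprinted genes' changes was not tested.

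The hairpin changes of imprinted genes had a median of 0.20 in retinoic acid and 0.31 in untreated cells, though not every gene had the smaller change in retinoic acid. Several calls in retinoic acid were lost when single arrays were left out. The call of Asb4 was lost without sh4 replicate 1 (change −0.36, adjusted p = 0.075). Kcnq1 (0.26, adjusted p = 0.061) and Nap1l5 (0.54, adjusted p = 0.078) lost theirs without sh4 replicate 3. Dlk1 lost its call without sh4 replicate 1 or 4 (adjusted p 0.054 to 0.056), Peg3 in 6 of 15 single-array omissions and Ppp1r9a in 4. Where these 3 calls were lost, the changes were 0.44 to 0.45 for Dlk1, 0.23 to 0.28 for Peg3 and 0.33 to 0.42 for Ppp1r9a. With all arrays they were 0.45, 0.26 and 0.40. Without sh4 replicate 4, Ndn gained one (0.24 with all arrays and 0.37 without it, adjusted p = 0.034). With normexp correction Asb4, Kcnq1, Nap1l5 and Peg3 lost their calls. Nnat, Peg10, Zdbf2 and Meg3 were called in every setting tried. Taken alone, the 2 other Meg3 probes were not called (0.33, adjusted p = 0.12, and 0.44, adjusted p = 0.092). The second probes of Nnat, Peg10 and Zdbf2 were called.

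Set side by side, 8 genes rose in sh4 cells both in retinoic acid and untreated: Peg3, Peg10, Dlk1, Nnat, Zdbf2, Plagl1, Meg3 and Calcr. The other probes of Peg3, Zdbf2, Plagl1 and Meg3 were not called in both conditions, whereas those of Peg10, Dlk1 and Nnat were. Asb4 fell in retinoic acid and rose in untreated cells with the probe used, and its second probe had no hairpin call. Kcnq1 rose in retinoic acid and fell in untreated cells. A further 9 genes, Igf2, Mest, Sgce, Ndn, Impact, H19, Mirg, Zim1 and Gnas, rose in untreated cells with no call in retinoic acid. The shares of all genes with such pairs of calls were not counted. The difference between both hairpin effects, the interaction, was called for 15 of the 36 genes, 12 of them negative, against 20.5% of all genes (10.2% positive and 10.2% negative). Its median was −0.14 over the 36 genes and 0.01 over all genes. Of the called interactions 6 reached 2-fold, all negative: Igf2 (−1.69), Peg3 (−1.43), H19 (−1.39), Asb4 (−1.15), Sgce (−1.09) and Mirg (−1.08), where 5.92% of all genes reached it. Peg12, Slc22a18 and Kcnq1 had positive interactions of 0.89, 0.74 and 0.65. With normexp correction 8 of the 15 interaction calls were lost, among them Igf2 (−0.36, adjusted p = 0.23), Peg3 (−0.36, adjusted p = 0.19) and Peg10 (−0.42, adjusted p = 0.17). Calcr and Impact each lost theirs in 13 of 15 single-array omissions and Dlk1 in 7.

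After retinoic acid, 21 of the 36 genes rose and 8 fell in sh4 cells, and 22 rose and 8 fell in shCTR cells. Called genes made up 58.7% of all genes in sh4 cells (27.1% higher and 31.6% lower) and 62.4% in shCTR cells (29% higher and 33.5% lower). Dlk1, a membrane protein of the Notch ligand family, was 26.6-fold higher in treated sh4 cells than in untreated ones and 39.3-fold in shCTR cells. Peg3 rose 15.9-fold in sh4 and 42.9-fold in shCTR cells, and H19 rose 12.7-fold in sh4 and 33.2-fold in shCTR cells. The median change was 0.94 in sh4 and 0.89 in shCTR cells, against −0.12 over all genes in both. In sh4 cells 16 genes rose and 2 fell by at least 2-fold, and in shCTR cells 17 rose and 3 fell, where 25.6% and 27.9% of all genes were called at that size. Treated arrays lay above untreated ones for 21 genes and below for 8 in sh4 cells (57.9% of all genes did not overlap) and for 22 and 8 in shCTR cells (59.9%).

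By class, 14 paternally expressed genes rose and 5 fell in sh4 cells (median 1.24), and 13 rose and 4 fell in shCTR cells (median 1.44). Among the maternally expressed genes, 7 rose and 3 fell in sh4 cells (median 0.17), and 9 rose and 4 fell in shCTR cells (median 0.87). In all, 20 genes rose in both hairpins and 7 fell in both: Snrpn, Mkrn3, Inpp5f, Mcts2, Phlda2, Ascl2 and Ppp1r9a. How many of all genes were called in both hairpins was not counted. With the probes used, Peg12 rose and Impact fell with a call in sh4 cells alone. Meg3 and Mirg rose and Slc22a18 fell with a call in shCTR cells alone, and all 5 of these had a called interaction. Another probe of Meg3 and the second probe of Mirg rose with a call in sh4 cells too, and the second probes of Peg12 and Impact had no call there. With the slide as a block Slc22a18 was called in sh4 cells too. Of all calls in shCTR cells, 46.4% were higher; this share was 35.4% with median scaling and 36.3% with normexp, and the median of all genes was then −0.33 and −0.23. In shCTR cells the calls of Kcnq1 and Nap1l5 were lost with median scaling and with normexp, which gave −0.08 and −0.15. Normexp also gave smaller, still called responses for Asb4 (0.86) and Calcr (1.38) in shCTR cells and for Asb4 (0.33), Kcnq1 (0.32) and Inpp5f (−0.36) in sh4 cells. The part of other cell types was not tested: trophectoderm markers summed to 173 to 199 in treated and 48.8 to 59.7 in untreated sh4 cells, and to 177 to 206 in treated and 4.31 to 5.96 in untreated shCTR cells. Of these 9 markers 5 rose and 3 fell in sh4 cells, and 7 rose and 1 fell in shCTR cells. Endoderm markers summed to 8.84 to 10.03 in treated and 0.371 to 0.405 in untreated sh4 cells, and to 44.5 to 53.1 in treated and 1.16 to 1.33 in untreated shCTR cells. Fibroblast markers summed to 25.9 to 27.4 in treated sh4 and 17.6 to 23.8 in treated shCTR cells. Of the 10 markers of each list, 9 rose and 1 fell in sh4 cells for both, while in shCTR cells all 10 endoderm markers rose and the fibroblast ones again had 9 up and 1 down. Stem cell markers summed to 53.3 to 65.2 in treated sh4 and 98.0 to 106 in treated shCTR cells, and 10 of the 10 fell in sh4 and 9 in shCTR cells. All tested markers of these lists were well above background on every treated array.

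**Figure D3:**
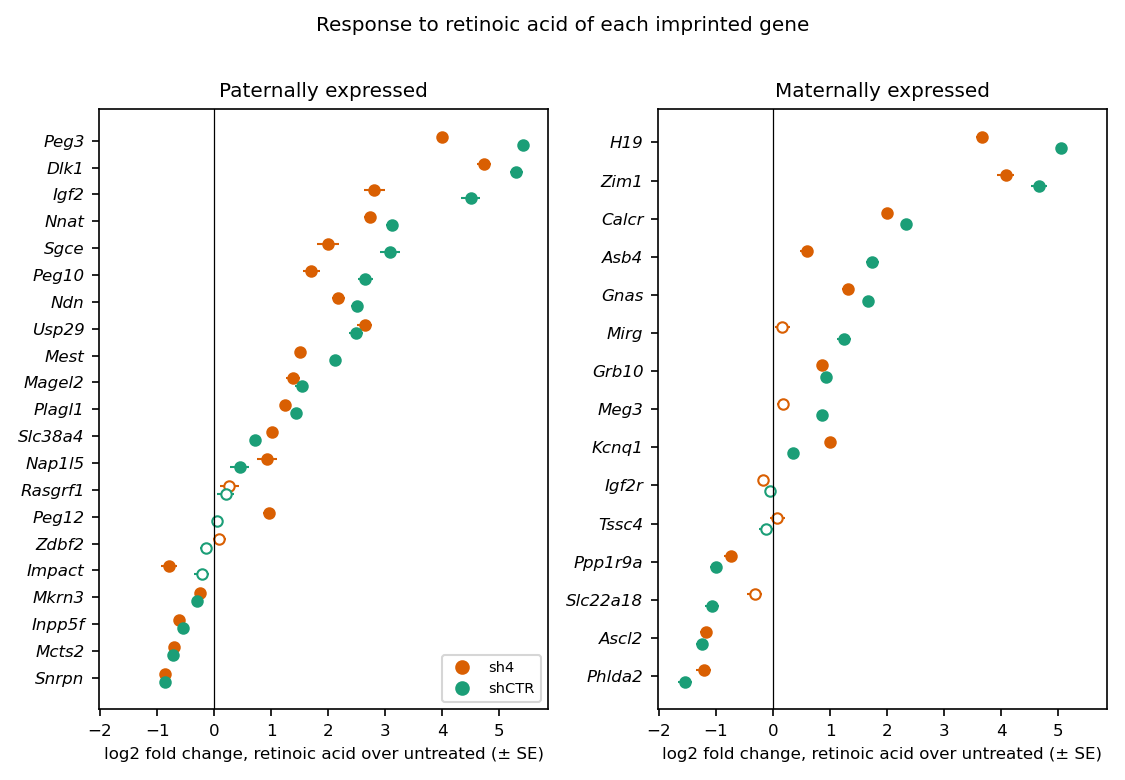
Response of each imprinted gene to retinoic acid, as the log2 fold change of treated over untreated cells ± SE, in sh4 (orange) and shCTR cells (green), for paternally (left) and maternally (right) expressed genes. Filled points had an adjusted p under 0.05. Peg3, Dlk1, Igf2, H19 and Zim1 lie furthest right, and Snrpn and Phlda2 are the lowest of their classes.

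Igf2 and H19 share enhancers and lie side by side on distal chromosome 7, with Igf2 on the father's copy and H19, a noncoding RNA, on the mother's. The Igf2 probe lies at chr7:149839661-149839720 of mm9, on the minus strand, and as for all probes here its place in an exon or UTR was not analysed. Igf2 levels were −1.91, −2.04 and −1.97 in treated sh4 cells and −1.96, −2.01, −1.99 and −2.01 in treated shCTR cells, and −4.58, −4.69, −5.04 and −4.80 in untreated sh4 cells against −5.94, −6.39, −6.92 and −6.72 in untreated shCTR cells. All untreated sh4 arrays lay above all untreated shCTR arrays, and both treated groups lay above both and overlapped each other. The sh4 effect on Igf2 was 0.02 ± 0.18 (adjusted p = 0.97) in retinoic acid and 1.71 ± 0.17 (adjusted p = 3.8e-06) in untreated cells. Its response to retinoic acid was 2.81 ± 0.18 (adjusted p = 1.3e-08) in sh4 and 4.50 ± 0.17 (adjusted p = 3.5e-11) in shCTR cells, with an interaction of −1.69 ± 0.25 (adjusted p = 2.8e-04). Normexp correction gave a response of 2.34 in shCTR cells, still called.

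H19 levels were 4.95, 4.74 and 4.91 in treated sh4 cells and 4.90, 4.88, 5.01 and 5.05 in treated shCTR cells, and 1.31, 0.93, 1.28 and 1.29 in untreated sh4 cells against −0.12, −0.25, −0.03 and 0.01 in untreated shCTR cells. The order of the groups was that of Igf2, with treated groups overlapping and untreated groups apart. The sh4 effect on H19 was −0.09 ± 0.10 (adjusted p = 0.65) in retinoic acid and 1.30 ± 0.09 (adjusted p = 2.2e-07) in untreated cells. It rose after retinoic acid by 3.66 ± 0.10 (adjusted p = 3.4e-12) in sh4 and 5.05 ± 0.09 (adjusted p = 6.0e-14) in shCTR cells, with an interaction of −1.39 ± 0.14 (adjusted p = 1.2e-05). The second, dim H19 probe was called in none of these comparisons. Its retinoic acid change in shCTR cells was −0.06 ± 0.40 (adjusted p = 0.92). With the mean of both probes the interaction of H19 lost its call (−0.63, adjusted p = 0.12).

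The Peg3 domain, on proximal chromosome 7, holds the paternally expressed Peg3 and Usp29, a gene of the ubiquitin protease family, and the maternally expressed zinc finger gene Zim1. Peg3 levels (probe at chr7:6658774-6658833, minus strand, mm9) were 0.61, 0.55 and 0.59 in treated sh4 cells and 0.22, 0.31, 0.38 and 0.37 in treated shCTR cells, and −3.47, −3.49, −3.42 and −3.24 in untreated sh4 cells against −5.06, −4.96, −5.25 and −5.14 in untreated shCTR cells. The hairpin groups were apart in both conditions, by far more in untreated cells. The sh4 effect was 0.26 ± 0.08 (adjusted p = 0.035) in retinoic acid and 1.70 ± 0.08 (adjusted p = 2.5e-09) in untreated cells, and the response to retinoic acid was 3.99 ± 0.08 in sh4 and 5.42 ± 0.08 in shCTR cells. A second Peg3 probe gave 2.02 ± 0.24 for the untreated sh4 effect.

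Usp29 levels (probe at chr7:6919806-6919865, plus strand, mm9) were −2.53, −2.56 and −2.41 in treated sh4 cells and −2.67, −2.78, −2.53 and −2.67 in treated shCTR cells, and −5.31, −5.19, −4.88 and −5.19 in untreated sh4 cells against −5.51, −5.06, −4.99 and −5.02 in untreated shCTR cells. Its untreated hairpin groups overlapped. The sh4 effect was 0.16 ± 0.13 (adjusted p = 0.47) in retinoic acid and 0.00 ± 0.12 (adjusted p = 0.99) in untreated cells, beside the 1.70 of Peg3, which shares its start region. This contrast of neighbours was picked out after the values were seen and was not tested. Usp29 rose after retinoic acid by 2.64 ± 0.13 in sh4 and 2.48 ± 0.12 in shCTR cells, and by 1.69 and 1.40 with normexp.

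Zim1 levels were −2.13, −1.99 and −1.98 in treated sh4 cells and −2.41, −2.43, −2.24 and −2.26 in treated shCTR cells, and −6.50, −5.93, −6.19 and −5.83 in untreated sh4 cells against −6.71, −7.11, −7.22 and −6.93 in untreated shCTR cells. Treated and untreated arrays were far apart. The sh4 effect on Zim1 was 0.30 ± 0.15 (adjusted p = 0.2) in retinoic acid and 0.88 ± 0.14 (adjusted p = 2.8e-04) in untreated cells, where normexp gave 0.03 (adjusted p = 0.91). The response to retinoic acid was 4.08 ± 0.15 in sh4 and 4.66 ± 0.14 in shCTR cells, and 2.39 and 2.14 with normexp.

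The Dlk1-Meg3 domain on distal chromosome 12 joins the paternally expressed Dlk1, a membrane protein that holds back adipocyte formation, and Rtl1, a retrotransposon-derived gene of the placenta, with the maternally expressed noncoding RNAs Meg3, Rian and Mirg. Mirg is the host of a microRNA cluster. Dlk1 levels (probe at chr12:110698721-110698781, plus strand, mm9) were 5.21, 5.16 and 5.23 in treated sh4 cells and 4.64, 4.60, 4.83 and 4.92 in treated shCTR cells, and 0.27, 0.35, 0.73 and 0.51 in untreated sh4 cells against −0.75, −0.63, −0.42 and −0.40 in untreated shCTR cells. The sh4 arrays lay above the shCTR arrays in both conditions. The sh4 effect was 0.45 ± 0.12 (adjusted p = 0.016) in retinoic acid and 1.02 ± 0.11 (adjusted p = 1.1e-05) in untreated cells, and the response to retinoic acid was 4.74 ± 0.12 in sh4 and 5.30 ± 0.11 in shCTR cells.

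Meg3 levels were 4.28, 4.31 and 4.43 in treated sh4 cells and 3.75, 3.73, 4.04 and 3.96 in treated shCTR cells, and 4.07, 4.18, 4.07 and 4.36 in untreated sh4 cells against 2.97, 3.18, 2.97 and 2.88 in untreated shCTR cells. Untreated shCTR cells stood below the other 3 groups. The sh4 effect on Meg3 was 0.47 ± 0.10 (adjusted p = 0.005) in retinoic acid and 1.17 ± 0.10 (adjusted p = 6.9e-07) in untreated cells. Its retinoic acid change was 0.17 ± 0.10 (adjusted p = 0.18) in sh4 and 0.87 ± 0.10 (adjusted p = 2.5e-06) in shCTR cells, with an interaction of −0.70 ± 0.14 (adjusted p = 0.0031). Its 2 other probes gave 1.35 ± 0.13 and 1.09 ± 0.16 for the untreated sh4 effect, but −0.21 and 0.84 for retinoic acid in sh4 cells, the second with an adjusted p of 0.00076. In retinoic acid these 2 probes gave sh4 effects of 0.33 (adjusted p = 0.12) and 0.44 (adjusted p = 0.092), without a call. Their interactions were −1.02 (adjusted p = 0.0014) and −0.65 (adjusted p = 0.069). The interaction of Meg3 missed the threshold with median scaling (−0.63, adjusted p = 0.06).

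Mirg levels were 3.26, 3.48 and 3.69 in treated sh4 cells and 3.23, 3.09, 3.37 and 3.25 in treated shCTR cells, and 3.18, 3.25, 3.56 and 3.27 in untreated sh4 cells against 1.82, 2.25, 2.06 and 1.85 in untreated shCTR cells. As for Meg3, untreated shCTR arrays were the lowest. The sh4 effect on Mirg was 0.24 ± 0.13 (adjusted p = 0.25) in retinoic acid and 1.32 ± 0.12 (adjusted p = 2.1e-06) in untreated cells. Its retinoic acid change was 0.16 ± 0.13 (adjusted p = 0.32) in sh4 and 1.24 ± 0.12 (adjusted p = 7.6e-07) in shCTR cells. A second Mirg probe gave 1.77 ± 0.21 for the untreated sh4 effect. With that probe the retinoic acid change was 0.66 ± 0.23 in sh4 cells (adjusted p = 0.023), past the threshold, and 1.95 ± 0.21 in shCTR cells. Rtl1 was well above background on 2 of 3 arrays of treated sh4 and 2 of 4 of treated shCTR cells, on 1 of 4 of untreated sh4 and on no untreated shCTR array, and was not tested.

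The Peg10 domain on proximal chromosome 6 holds the paternally expressed Peg10 and Sgce, which encodes epsilon-sarcoglycan, beside the maternally expressed Asb4, Calcr, the calcitonin receptor, and Ppp1r9a, the actin-binding neurabin. Peg10 levels (probe at chr6:4709867-4709926, plus strand, mm9) were −0.97, −0.79 and −0.92 in treated sh4 cells and −1.68, −1.39, −1.79 and −1.61 in treated shCTR cells, and −2.19, −2.59, −2.78 and −2.84 in untreated sh4 cells against −4.26, −4.07, −4.32 and −4.41 in untreated shCTR cells. The hairpin groups did not overlap in either condition. The sh4 effect was 0.72 ± 0.15 (adjusted p = 0.0027) in retinoic acid and 1.66 ± 0.13 (adjusted p = 6.0e-07) in untreated cells, with an interaction of −0.94 ± 0.20 (adjusted p = 0.0039). Peg10 rose after retinoic acid by 1.70 ± 0.15 in sh4 and 2.65 ± 0.13 in shCTR cells.

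Sgce levels (probe at chr6:4639584-4639643, minus strand, mm9) were 1.53, 1.39 and 1.58 in treated sh4 cells and 1.05, 1.01, 1.28 and 1.24 in treated shCTR cells, and −0.66, −0.93, −0.25 and −0.13 in untreated sh4 cells against −2.33, −2.03, −1.69 and −1.70 in untreated shCTR cells. Each treated array lay above each untreated one of its hairpin. The sh4 effect on Sgce was 0.36 ± 0.19 (adjusted p = 0.24) in retinoic acid and 1.44 ± 0.18 (adjusted p = 2.9e-05) in untreated cells; with the slide as a block the first was 0.43 (adjusted p = 0.025). It rose after retinoic acid by 2.00 ± 0.19 in sh4 and 3.08 ± 0.18 in shCTR cells. Its interaction of −1.09 lost its call with normexp (−0.92, adjusted p = 0.051) and with median scaling (adjusted p = 0.086).

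Calcr levels were −1.89, −1.92 and −1.87 in treated sh4 cells and −2.32, −2.35, −2.29 and −2.29 in treated shCTR cells, and −3.998, −3.86, −3.78 and −3.95 in untreated sh4 cells against −4.81, −4.62, −4.65 and −4.46 in untreated shCTR cells. The sh4 arrays were higher in both conditions, by 0.42 ± 0.08 (adjusted p = 0.0017) in retinoic acid and by 0.74 ± 0.07 (adjusted p = 3.5e-06) in untreated cells. With normexp the second was 0.28 (adjusted p = 0.069). Calcr rose after retinoic acid by 2.00 ± 0.08 in sh4 and 2.32 ± 0.07 in shCTR cells.

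Asb4 levels were −3.86, −3.47 and −3.59 in treated sh4 cells and −3.30, −3.19, −3.23 and −2.99 in treated shCTR cells, and −4.48, −4.09, −4.18 and −4.18 in untreated sh4 cells against −5.08, −4.84, −4.81 and −4.95 in untreated shCTR cells. It was lower in sh4 cells in retinoic acid, by 0.47 ± 0.12 (adjusted p = 0.013), and higher in untreated sh4 cells, by 0.69 ± 0.11 (adjusted p = 3.0e-04), with an interaction of −1.15 ± 0.16 (adjusted p = 2.0e-04). Its retinoic acid response was 0.59 ± 0.12 in sh4 and 1.74 ± 0.11 in shCTR cells, and the first lost its call with the mean of its probes (0.11, adjusted p = 0.48). A second Asb4 probe gave −0.24 ± 0.22 for retinoic acid in shCTR cells. Its sh4 effects were −0.06 (adjusted p = 0.92) in retinoic acid and 0.06 (adjusted p = 0.91) in untreated cells, with an interaction of −0.12 (adjusted p = 0.88). With the mean of the probes the sh4 effect in retinoic acid lost its call (−0.26, adjusted p = 0.18). The untreated one (0.37, adjusted p = 0.029) and the interaction (−0.64, adjusted p = 0.019) kept theirs. Ppp1r9a fell after retinoic acid by 0.74 ± 0.11 in sh4 and 0.99 ± 0.11 in shCTR cells with the probe used and rose by 0.47 in both with its second probe, each past the threshold.

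**Figure D4:**
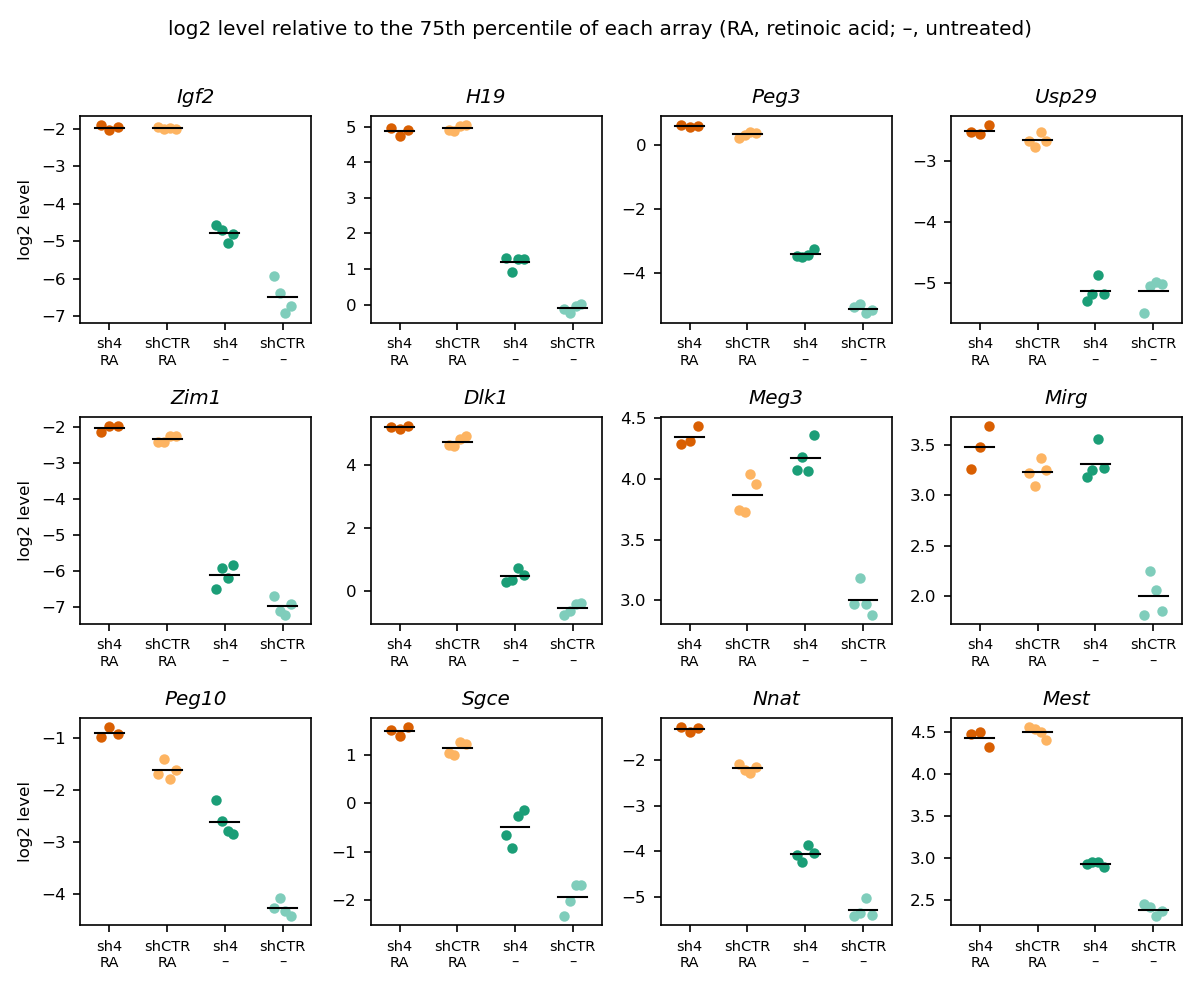
Level of 12 imprinted genes on every array (points), as log2 of the signal over the array's 75th percentile, with group means (lines), by group. The 12, picked after their values were seen, come from 4 domains and, for Nnat and Mest, other loci. In Igf2, H19 and Peg3 the untreated sh4 points lie between the treated groups and untreated shCTR, and in Usp29 they overlap untreated shCTR.

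The Kcnq1 domain lies next to Igf2 on distal chromosome 7. All 5 genes tested are maternally expressed, and the noncoding RNA Kcnq1ot1, known to silence them on the father's copy, was not called in any pairwise hairpin comparison (0.30 in retinoic acid and 0.24 in untreated cells). In sh4 cells in retinoic acid Kcnq1 rose and none fell, in untreated sh4 cells none rose and 2 fell, and after retinoic acid 1 rose and 2 fell in sh4 and 1 rose and 3 fell in shCTR cells. In the same order 21.2%, 28.6%, 58.7% and 62.4% of all genes were called, and 5 genes are too few to read a direction for the domain. Phlda2, which limits placental growth, stood at 1.98, 2.13 and 1.90 in treated sh4 and 1.95, 2.12, 1.68 and 1.81 in treated shCTR cells, and at 3.44, 3.37, 2.90 and 3.15 in untreated sh4 cells against 3.51, 3.48, 3.36 and 3.37 in untreated shCTR cells. Treated arrays lay below untreated ones in both hairpins, by 1.21 ± 0.13 (adjusted p = 2.4e-06) in sh4 and 1.54 ± 0.12 (adjusted p = 7.9e-08) in shCTR cells, while the hairpin groups overlapped. Ascl2, a transcription factor of the trophoblast, stood at 0.73, 0.58 and 0.54 in treated sh4 and 0.37, 0.27, 0.41 and 0.62 in treated shCTR cells, and at 1.68, 1.61, 1.92 and 1.96 in untreated sh4 cells against 1.57, 1.63, 1.72 and 1.75 in untreated shCTR cells. It fell by 1.17 ± 0.10 (adjusted p = 3.1e-07) in sh4 and 1.25 ± 0.10 (adjusted p = 5.8e-08) in shCTR cells.

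Slc22a18, a transporter of the organic cation family, stood at −0.22, −0.33 and 0.04 in treated sh4 and −0.48, −0.58, −0.35 and −0.28 in treated shCTR cells, and at −0.02, 0.04, 0.31 and 0.27 in untreated sh4 cells against 0.43, 0.51, 0.72 and 0.90 in untreated shCTR cells. It was lower in untreated sh4 cells, by 0.49 ± 0.12 (adjusted p = 0.0078), and fell after retinoic acid in shCTR cells by 1.06 ± 0.12 (adjusted p = 3.8e-06), but not with a call in sh4 cells, where the change was −0.32 ± 0.13 (adjusted p = 0.053). That change was called in 7 of 26 alternative settings, among them the slide as a block (−0.26, adjusted p = 0.0037), under which the sh4 effect in retinoic acid was also called (0.31, adjusted p = 0.0045). Its untreated hairpin call was lost with median scaling (−0.53, adjusted p = 0.073). Kcnq1, a potassium channel subunit, rose after retinoic acid by 1.00 ± 0.08 (adjusted p = 1.3e-07) in sh4 and 0.35 ± 0.07 (adjusted p = 9.7e-04) in shCTR cells. Its hairpin effects, 0.32 in retinoic acid and −0.32 in untreated cells, were called neither in the authors' deposited table nor with normexp (adjusted p = 0.53 and 0.22). Tssc4 was called in no comparison, with changes of −0.17 to 0.08 in the 4 pairwise ones.

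The Prader-Willi domain in central chromosome 7, named after the human syndrome linked to its loss, is expressed from the father's copy and many of its genes act in neurons. Ndn, which encodes necdin, a protein linked to cell cycle exit in neurons, stood at 0.77, 0.67 and 0.33 in treated sh4 and 0.25, 0.23, 0.53 and 0.39 in treated shCTR cells, and at −1.64, −1.67, −1.49 and −1.54 in untreated sh4 cells against −2.37, −2.10, −2.08 and −2.10 in untreated shCTR cells. Its sh4 effect was 0.24 ± 0.11 (adjusted p = 0.18) in retinoic acid and 0.58 ± 0.11 (adjusted p = 9.0e-04) in untreated cells, and it rose after retinoic acid by 2.17 ± 0.11 in sh4 and 2.51 ± 0.11 in shCTR cells. Magel2, of the same MAGE family, stood at −0.93, −0.79 and −1.19 in treated sh4 and −0.996, −0.99, −1.16 and −1.12 in treated shCTR cells, and at −2.43, −2.13, −2.42 and −2.43 in untreated sh4 cells against −2.70, −2.30, −2.71 and −2.69 in untreated shCTR cells. It rose after retinoic acid by 1.38 ± 0.12 (adjusted p = 3.9e-07) in sh4 and 1.53 ± 0.12 (adjusted p = 4.8e-08) in shCTR cells. Its untreated sh4 effect of 0.25 ± 0.12 (adjusted p = 0.14) passed the threshold without shCTR replicate 2 (0.35, adjusted p = 0.026).

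The other 3 genes of that domain had other directions. Snrpn, which encodes a spliceosome protein, fell by 0.87 ± 0.09 (adjusted p = 9.0e-07) in sh4 and 0.86 ± 0.08 (adjusted p = 3.6e-07) in shCTR cells after retinoic acid, and its hairpin effects were near 0 (0.02 in retinoic acid and 0.03 in untreated cells). Mkrn3, a ubiquitin ligase known for holding back puberty, fell by 0.25 ± 0.08 (adjusted p = 0.02) in sh4 and 0.30 ± 0.08 (adjusted p = 0.0034) in shCTR cells, the first losing its call with normexp and in 3 of 15 single-array omissions. Peg12, of the FRAT family of Wnt pathway genes, was lower in untreated sh4 cells, by 0.64 ± 0.09 (adjusted p = 9.4e-05), and rose after retinoic acid by 0.95 ± 0.10 (adjusted p = 1.2e-06) in sh4 cells, against 0.06 ± 0.09 (adjusted p = 0.6) in shCTR cells. With the mean of both Peg12 probes, its untreated hairpin call was lost (−0.34, adjusted p = 0.056). That mean gave a called 0.47 (adjusted p = 0.0083) for retinoic acid in sh4 cells and a called interaction of 0.56 (adjusted p = 0.048). The second Peg12 probe alone gave −0.02 (adjusted p = 0.95) for retinoic acid in sh4 cells and an interaction of 0.22 (adjusted p = 0.71). Of 10 neural markers, 2 rose and 5 fell in sh4 cells after retinoic acid, and 3 rose and 4 fell in shCTR cells. In the same order 58.7% and 62.4% of all genes were called. Between the hairpins 3 neural markers rose and 3 fell, both in retinoic acid and in untreated cells, beside 21.2% and 28.6% of all genes. The summed level of the neural markers was 5.55 to 6.87 in treated and 10.9 to 12.6 in untreated sh4 cells. In shCTR cells it was 4.82 to 5.43 in treated and 15.7 to 17.6 in untreated ones.

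Among the 13 genes at other loci, 6 rose and 1 fell in untreated sh4 cells, and 4 rose in sh4 cells in retinoic acid. Of all genes, 28.6% were called in the first comparison and 21.2% in the second. Nnat stood at −1.28, −1.39 and −1.30 in treated sh4 and −2.08, −2.22, −2.29 and −2.15 in treated shCTR cells, and at −4.08, −4.23, −3.86 and −4.04 in untreated sh4 cells against −5.41, −5.35, −5.02 and −5.40 in untreated shCTR cells. The sh4 arrays were higher in both conditions, by 0.86 ± 0.11 (adjusted p = 6.7e-05) in retinoic acid and 1.24 ± 0.10 (adjusted p = 5.2e-07) in untreated cells. Nnat rose after retinoic acid by 2.73 ± 0.11 in sh4 and 3.11 ± 0.10 in shCTR cells, the second being 1.74 with normexp. Mest, a protein of the hydrolase fold that marks mesoderm, stood at 4.48, 4.50 and 4.33 in treated sh4 and 4.56, 4.53, 4.50 and 4.41 in treated shCTR cells, and at 2.93, 2.95, 2.95 and 2.89 in untreated sh4 cells against 2.45, 2.42, 2.31 and 2.37 in untreated shCTR cells. Its sh4 effect was −0.06 ± 0.06 (adjusted p = 0.58) in retinoic acid and 0.54 ± 0.06 (adjusted p = 8.0e-06) in untreated cells, with an interaction of −0.61 ± 0.09 (adjusted p = 1.9e-04), and it rose after retinoic acid by 1.504 ± 0.06 in sh4 and 2.11 ± 0.06 in shCTR cells. Its 3 probes agreed in sign in each pairwise comparison.

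Plagl1, a zinc finger transcription factor, stood at 0.14, 0.19 and 0.19 in treated sh4 and −0.12, −0.14, −0.12 and −0.24 in treated shCTR cells, and at −1.09, −1.01, −1.10 and −1.06 in untreated sh4 cells against −1.73, −1.44, −1.64 and −1.58 in untreated shCTR cells. It was higher in sh4 cells by 0.33 ± 0.07 (adjusted p = 0.0034) in retinoic acid and 0.53 ± 0.06 (adjusted p = 2.4e-05) in untreated cells, but with the mean of its 4 probes neither was called (0.11, adjusted p = 0.6, and 0.27, adjusted p = 0.056). It rose after retinoic acid by 1.24 ± 0.07 in sh4 and 1.44 ± 0.06 in shCTR cells. Slc38a4, an amino acid transporter, stood at 3.52, 3.42 and 3.40 in treated sh4 and 3.18, 3.34, 3.27 and 3.21 in treated shCTR cells, and at 2.52, 2.34, 2.44 and 2.47 in untreated sh4 cells against 2.57, 2.38, 2.54 and 2.64 in untreated shCTR cells. It rose after retinoic acid by 1.01 ± 0.07 (adjusted p = 4.9e-08) in sh4 and 0.71 ± 0.07 (adjusted p = 6.1e-07) in shCTR cells.

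Gnas, which encodes the G protein alpha subunit that activates adenylyl cyclase, stood at 4.14, 4.05 and 4.07 in treated sh4 and 4.06, 3.97, 4.11 and 4.11 in treated shCTR cells, and at 2.77, 2.53, 2.94 and 2.86 in untreated sh4 cells against 2.38, 2.23, 2.47 and 2.53 in untreated shCTR cells. Its sh4 effect of 0.37 ± 0.09 (adjusted p = 0.0067) in untreated cells was lost with median scaling (0.34, adjusted p = 0.19). The bright probe rose after retinoic acid by 1.31 ± 0.10 in sh4 and 1.66 ± 0.09 in shCTR cells, whereas another probe of the locus, annotated to a different transcript, fell by 1.60 in sh4 and by 0.71 in shCTR cells. Both probes passed the threshold in both hairpins.

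Zdbf2 was higher in sh4 cells in both conditions, by 0.74 ± 0.11 (adjusted p = 3.4e-04) in retinoic acid and 0.51 ± 0.10 (adjusted p = 0.0019) in untreated cells, and its retinoic acid change was 0.09 ± 0.11 (adjusted p = 0.55) in sh4 and −0.14 ± 0.10 (adjusted p = 0.26) in shCTR cells. Its second probe fell after retinoic acid, by 0.66 in sh4 and by 1.23 in shCTR cells, and the mean of both probes gave −0.29 in sh4 cells (adjusted p = 0.013). The sh4 effect of the second Zdbf2 probe was 0.70 (adjusted p = 5.6e-05) in retinoic acid. In untreated cells it was 0.12 (adjusted p = 0.31), without a call, and the interaction of that probe was called (0.57, adjusted p = 0.0027). The mean of both probes kept the untreated call (0.32, adjusted p = 0.01). Impact, which restrains a stress kinase of translation, was higher in untreated sh4 cells by 0.78 ± 0.13 (adjusted p = 4.1e-04) and fell after retinoic acid in sh4 cells by 0.80 ± 0.14 (adjusted p = 2.0e-04), both without a call over the mean of its probes (adjusted p = 0.11 and 0.053). Nap1l5, of the nucleosome assembly family, was higher in sh4 cells in retinoic acid by 0.69 ± 0.18 (adjusted p = 0.015). It rose after retinoic acid by 0.93 ± 0.18 (adjusted p = 5.4e-04) in sh4 and 0.44 ± 0.17 (adjusted p = 0.034) in shCTR cells, neither of which was called with normexp. Grb10, an adaptor that damps insulin receptor signalling, rose by 0.86 ± 0.08 (adjusted p = 6.5e-07) in sh4 and 0.92 ± 0.08 (adjusted p = 1.2e-07) in shCTR cells and had no hairpin call. Inpp5f, a phosphoinositide phosphatase, fell by 0.61 ± 0.08 in sh4 and 0.54 ± 0.07 in shCTR cells, and Mcts2, a retrogene copy of a translation factor gene, fell by 0.70 ± 0.06 in sh4 and 0.73 ± 0.05 in shCTR cells. Rasgrf1, an exchange factor for Ras, and Igf2r, the receptor that clears IGF2, were called in no pairwise comparison, with Igf2r between −0.17 and 0.18 while its ligand gene Igf2 moved.

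In 19 genes with several probes, the probes differed in sign for 2 genes in the untreated hairpin comparison, for 3 in the hairpin comparison in retinoic acid, and for 7 in sh4 and 6 in shCTR cells after retinoic acid. Gnas and Ppp1r9a alone were called in opposite directions, after retinoic acid in both hairpins.

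A further 4 lists were chosen with results of these data known. Their counts stand beside called shares of all genes of 21.2% in the hairpin comparison in retinoic acid, 28.6% in the untreated one, and 58.7% in sh4 and 62.4% in shCTR cells after retinoic acid. Of 24 factors linked to imprints or DNA methylation, 3 rose and 5 fell in sh4 cells in retinoic acid. In untreated sh4 cells 5 rose and 3 fell. Dppa3, which protects imprints in the early embryo, had a change of −0.98 ± 0.09 in retinoic acid and 3.01 ± 0.08 in untreated cells, and the de novo methyltransferase Dnmt3b −0.43 and 1.29. The CTCF relative Ctcfl and the methylcytosine oxidase Tet2 fell in untreated sh4 cells, by 0.86 and 0.75 on the log2 scale. After retinoic acid 17 of the 24 fell in each hairpin and 3 rose in sh4 and 2 in shCTR cells. Zfp57 fell by 2.99 in sh4 and 3.02 in shCTR cells, and Tet1 fell by 3.11 in sh4 and 3.34 in shCTR cells.

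Of 15 genes of IGF2 signalling, 3 rose and 1 fell in sh4 cells in retinoic acid and 7 rose and 1 fell in untreated cells, where the receptor substrates Irs2 (1.56) and Irs1 (1.44) and the binding proteins Igfbp3 (0.92) and Igfbp6 (0.88) rose. After retinoic acid 8 rose and 3 fell in sh4 and 9 rose and 2 fell in shCTR cells. Igfbp5, well above background on no untreated shCTR array, was at least 123-fold higher in treated shCTR cells; such a bound replaces the dim group by the lowest detectable signal of each array. Of 36 tested imprinted genes outside the 38, 6 rose and 8 fell in sh4 cells in retinoic acid and 8 rose and 10 fell in untreated cells, with medians of −0.01 and 0.08. In untreated sh4 cells Atp10a, a phospholipid transporter, rose by 2.09, Airn, the noncoding RNA that silences Igf2r, by 1.26, and the zinc finger gene Zfp264 of the Peg3 domain fell by 1.80 on the log2 scale. Decorin (Dcn), a matrix proteoglycan that is also a fibroblast marker, was at least 2.52-fold higher in untreated sh4 than shCTR cells. After retinoic acid 16 rose and 9 fell in sh4 and 18 rose and 9 fell in shCTR cells, with Airn higher by 3.62 in sh4 and 4.76 in shCTR cells while Igf2r was not called. Of 12 PRC2 genes, Phf19 among them, 2 fell in sh4 cells in retinoic acid, and 1 rose and 3 fell in untreated cells. These shares were near those of all genes. Phf19 was the check of the hairpin, so its own lower level in sh4 cells is no separate result. After retinoic acid 2 of the 12 rose and 10 fell in each hairpin.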

How the data were processed

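The 15 RNA samples were labelled with Cy3 for Agilent arrays of 1 colour, per the labels. The deposited processed signal is an intensity from Feature Extraction 10.7.3.1, with background subtracted and no scaling between arrays, per the file headers. A table of log2 values that the authors deposited, made in a way the sources used here do not give, served as an alternative.

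Of 43020 non-control spots, uneven and outlying ones were removed and copies averaged to 39429 probes, of which 117 lacked a usable spot on some array and were dropped. Log2 signals were set against the 75th percentile of each array. The 31179 probes kept were each well above background in at least 3 arrays of some group, and the one with the highest mean stood for its gene. The number of arrays limits the precision. Limma 3.58.1 in R 4.3.3 with the package data.table (1.17.8) fitted the 4 groups in 1 model, two-sided, and was tested on simulated data. Values per array are printed for the 22 imprinted genes called with at least 2-fold change in a pairwise comparison, and other lists name at most 4 called genes per comparison, by size of change. Kcnq1ot1 and the markers listed as dim are named outside that rule, after their values were seen. Imprinted genes and lists were chosen with earlier results of these data known. Same-numbered arrays correlated in their deviations from group means by −0.533 to 0.578, above 0.1 in 18 of 21 pairs. Arrays of one slide correlated by 0.115 to 0.607. Most same-numbered arrays also shared a slide. Where they did not, treated sh4 replicate 3 correlated with the others of its number by −0.533 to −0.349. Treated sh4 replicate 4 did so by 0.412 to 0.558. Whether the numbers pair samples cannot be told from these values, and the main model had no block. Alternatives covered background correction, scaling, the filter, the choice of probe, blocks, and the omission of arrays.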

Additional observations from a re-analysis of the deposited data

Results flagged for a closer look

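In 8 of 108 sets of 4 arrays, 1 array stood apart from the other 3 by Dixon's test, which chance flags in about 1 of 20 sets. In untreated sh4 cells, these were replicate 2 for H19 (0.93, others 1.28 to 1.31), for Magel2 (−2.13, others −2.43 to −2.42) and for Mkrn3 (−3.19, others −2.96 to −2.92). In treated shCTR cells it was replicate 2 for Tssc4 (2.72, others 2.95 to 2.99). In untreated shCTR cells they were replicate 1 for Ndn (−2.37, others −2.10 to −2.08) and Usp29 (−5.51, others −5.06 to −4.99), replicate 2 for Magel2 (−2.30, others −2.71 to −2.69) and replicate 3 for Nnat (−5.02, others −5.41 to −5.35).

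The hairpin effect differed between retinoic acid and untreated cells, by the interaction test, for 15 genes. The difference was negative for Igf2 (−1.69), Peg3 (−1.43), H19 (−1.39), Asb4 (−1.15), Sgce (−1.09), Mirg (−1.08), Peg10 (−0.94), Meg3 (−0.70), Mest (−0.61), Impact (−0.58), Dlk1 (−0.56) and Calcr (−0.32). It was positive for Kcnq1 (0.65), Slc22a18 (0.74) and Peg12 (0.89).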

How the results depend on the processing

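Of 22 calls in the untreated hairpin comparison, 12 held under every alternative, as did 4 of 12 in retinoic acid, 23 of 29 and 28 of 30 for retinoic acid in sh4 and shCTR cells, and 4 of 15 interactions. Over 4644 recomputed changes, 150 lost a call, 59 gained one and 6 reversed, and 87 more changed sign with no call either way. Reversed values were Zdbf2 in sh4 cells after retinoic acid (−0.29, mean of probes), Nap1l5 (−0.15 with normexp, −5.6e-05 in the authors' deposited table) and Kcnq1 (−0.076 with normexp) in shCTR cells after retinoic acid, and the Calcr interaction (0.11 with normexp, 0.012 in the authors' deposited table). Of the counts of called genes, 25 moved by over 1.5 times.

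A requirement of at least 2-fold left 9 genes in the untreated hairpin comparison (6 paternal, 3 maternal), 0 in retinoic acid (0 in each class), 18 for retinoic acid in sh4 cells (12 paternal, 6 maternal), 11 paternal genes in shCTR cells, and 6 interactions (3 in each class). Median scaling gave 7 hairpin calls in retinoic acid (1 maternal) and 9 interactions (5 paternal, 4 maternal). Normexp gave 7 interactions (2 paternal), 5 maternal calls in the untreated hairpin comparison and 3 in retinoic acid, where quantile normalisation also gave 3. Without the 3 arrays rated for evaluation, an alternative chosen after seeing the data, 5 paternal interactions were called. Over all genes, the untreated hairpin comparison had 7166 calls and 4641 with normexp, the one in retinoic acid 5327, 3394 with normexp and 3297 with median scaling, and the interaction 5133, 3048 with normexp and 2971 with median scaling. The causes were not tested.

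With single arrays left out, 21 to 22 genes were called in the untreated hairpin comparison (paternal 12 to 13, maternal 9 to 10), 8 to 13 in retinoic acid (5 to 8 and 3 to 5), 28 to 30 for retinoic acid in sh4 cells (18 to 19 and 10 to 11), 29 to 30 in shCTR cells (16 to 17 and 13), and 12 to 15 interactions (6 to 8 in each class). Without sh4 replicate 1 in retinoic acid, 3 maternal genes were called in that hairpin comparison. With the replicate number as a block, 23, 13, 31 and 30 genes and 16 interactions were called. Number and slide mostly coincide, so this block is not fully separate from that of the slide. With the slide as a block no call was lost and 11 were gained: Magel2, Igf2r, Phlda2 and Rasgrf1 in the untreated hairpin comparison, Sgce, Ascl2, Peg12 and Slc22a18 in that in retinoic acid, Slc22a18 after retinoic acid in sh4 cells, and the interactions of Gnas and Slc38a4. Depth limits Rtl1, which was too dim to test, and the sizes of change of dim probes such as Zim1 and Igf2, which normexp compresses.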
